A study of Mus musculus with 4 samples.

Results

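The genes that encode the proteins of the cytosolic ribosome were followed through the RNA of IgM+ B cell lymphomas. They were chosen by symbol in GENCODE M21 (GRCm38), as protein-coding genes named Rpl or Rps with a number, together with Rplp0 to Rplp2 and Rpsa. Rps27l was left out by the same rule. This gave 80 genes of the 34866 in the deposited table, 50 for the large (60S) subunit and 30 for the small (40S) subunit. The members lie on 19 chromosomes, with 14 on chromosome 7 and 4 on chromosome X.

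The libraries came from λ-MYC Tom+/ki mice, which carry human MYC under regulatory sequences of the immunoglobulin λ light chain locus, a Cre knock-in allele and a tdTomato reporter in the Rosa26 locus (R26tdTom+/ki). All 4 libraries share these alleles, and no library from a mouse without the transgene was analysed here. Cre switches the reporter on for good, so Tom+ marks a cell that made Cre at some time or descends from one. B220+ IgM+ spleen cells of 2 mice with an IgM+ Tom+ tumor, called tumors #1 and #2, were sorted into Tom- and Tom+ cells, and polyA RNA was sequenced as single reads of 60 bases. Each tumor is 1 mouse, each group has n = 2 libraries, and the sources used here give no exact age, only a minimum of 4 weeks for mice of the study and that tumor mice were taken when moribund. Levels are TPM (transcript counts corrected for transcript length and scaled to 1000000 in every library), so all values are shares of the library's RNA. In such bulk samples, fewer cells of a type and less RNA per cell cannot be told apart. In each list of values below, the order is Tom- and Tom+ of tumor #1 and then Tom- and Tom+ of tumor #2.

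A ribosome is built from ribosomal RNA and from about 1 copy of each ribosomal protein, made in near equal amounts. The small subunit reads the mRNA, and the large subunit joins the amino acids. Mammalian ribosomal protein mRNAs begin with a C followed by a run of pyrimidines, the terminal oligopyrimidine (TOP) motif, through which the kinase mTOR and the protein Larp1 control their translation and stability together. MYC is known to raise transcription of ribosomal protein genes and of other parts of ribosome production. These genes also have a very large number of processed pseudogenes in mammalian genomes, made by reverse transcription of their abundant mRNAs.

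B cell genes were present in all libraries, with a summed level of 7 B cell markers of 2747, 2397, 5000 and 5957 TPM. The markers of T cells summed to 1.17 to 8.27 TPM, those of myeloid cells to 2.64 to 13.3 TPM, those of red cells to 0.619 to 21.5 TPM and those of stroma and endothelium to 15.1 to 50.4 TPM. The library of Tom+ cells of tumor #2 stood apart in Jchain, and the sum of 4 plasma cell markers was 13.0, 15.3, 20.1 and 231 TPM, the last value mostly from Jchain at 209 TPM. The other plasma cell markers in that library were Xbp1 at 21.2 TPM, Prdm1 at 0.570 TPM and Sdc1 at 0.428 TPM, and in the Tom- library of the same tumor Xbp1 had 18.7 TPM and Sdc1 was listed at 0. Immunoglobulin genes took 6.28%, 5.70%, 5.35% and 9.76% of the TPM, and mitochondrially encoded genes took 6.61%, 8.67%, 14.4% and 15.6%. Both shares move with results given below, and their part in those results is addressed only by values rescaled without these genes.

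Of the 80 members, 77 reached 1 TPM in 2 or more libraries and were tested. The other 3 are copies of a member that are used in special tissues. Rpl10l, the testis copy of Rpl10, was listed at 0, 0, 0 and 0.143 TPM. Rpl3l, the muscle copy of Rpl3, was listed at 0.562, 0.173, 0 and 0 TPM. Rpl39l, a copy of Rpl39, was listed at 0 in all 4 libraries. Their broadly used counterparts were all abundant. Rpl10, a late-joining protein of the 60S subunit, had 949, 964, 583 and 531 TPM, Rpl3, next to the catalytic center, had 1724, 1759, 1129 and 955 TPM, and Rpl39, at the exit tunnel, had 829, 778, 651 and 530 TPM.

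Together the members made up 13.2% and 13.1% of the TPM of tumor #1 and 10.7% and 9.38% of tumor #2. Of the TPM of nuclear protein-coding genes they took 23.8%, 23.8%, 19.8% and 18.6%. The 60S members contributed 7.20%, 7.24%, 6.05% and 5.23% of all TPM and the 40S members 6.04%, 5.89%, 4.68% and 4.15%. The balance of the subunits was nearly the same in every library, with 45.6%, 44.8%, 43.6% and 44.2% of the member TPM from the 40S subunit. The mean over both tumors was 44.6% ± 1.41 (SD, n = 2) in Tom- and 44.5% ± 0.444 in Tom+ cells, and the difference was -0.0877 ± 0.967 percentage points (exact sign-flip permutation within the pairs, two-sided, p = 1).

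**Figure D1:**
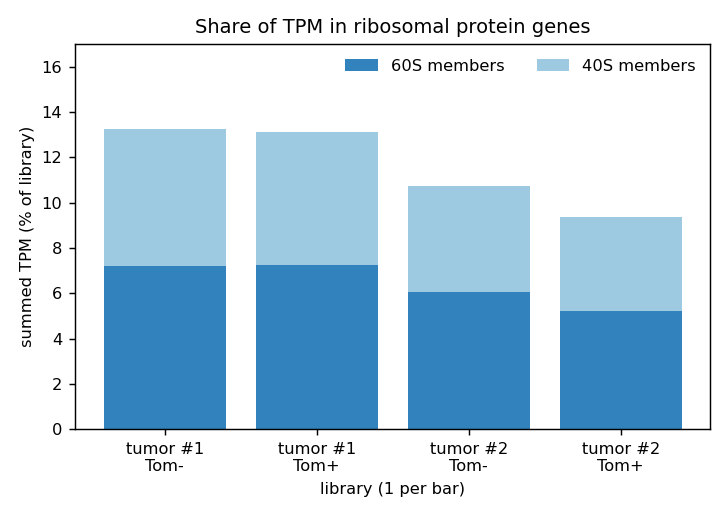
Stacked bars of the percent of TPM taken by 60S and 40S ribosomal protein genes in each of the 4 libraries (y axis from 0, percent of all TPM). Both libraries of tumor #2 are lower than both of tumor #1, and the lowest total is 9.38% in Tom+ cells of tumor #2.

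The members were not equally abundant. The mean TPM over the libraries ran from 64.1 for Rps27 to 8440 for Rps15a with a median of 1045, and 34 members lay between 1000 and 3000 TPM. The median 40S member was higher, at 1469, 1451, 1181 and 1094 TPM, than the median 60S member, at 1043, 1021, 917 and 787 TPM. Rps15a, a 40S protein, was the highest member in all 4 libraries, with 10255, 9406, 7487 and 6612 TPM. Rpl13a of the 60S subunit was second in all 4, with 5935, 6438, 5729 and 4478 TPM. Next came 2 further 60S proteins, Rpl18 with 5507, 5424, 4930 and 3539 TPM and Rpl6 with 4339, 4399, 4336 and 4008 TPM, which exchanged places only in Tom+ cells of tumor #2. Rps25, a 40S protein used in translation from internal entry sites, came next on average, with 3797, 3872, 3553 and 3170 TPM. These 5 genes held 22.5% to 24.3% of the member TPM.

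At the other end, 8 members had a mean under 300 TPM. The lowest was Rps27, a zinc finger protein of the 40S subunit, at 58.0, 100.2, 80.7 and 17.4 TPM. Above it were Rpl12, a base of the stalk where elongation factors bind, at 74.6, 85.3, 138 and 86.9 TPM, and Rpl5, which carries 5S rRNA into the ribosome, at 67.7, 83.9, 139 and 161 TPM. Rpl10a had 210, 229, 189 and 127 TPM and Rpl36al had 260, 261, 207 and 177 TPM. Rpl36a, the X-linked gene of which Rpl36al is a close relative, was higher, at 445, 444, 357 and 389 TPM. The order of levels was close to constant across libraries (Spearman's rho 0.96 to 0.996 over 77 genes, a description across genes of the same annotation and lengths).

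**Figure D2:**
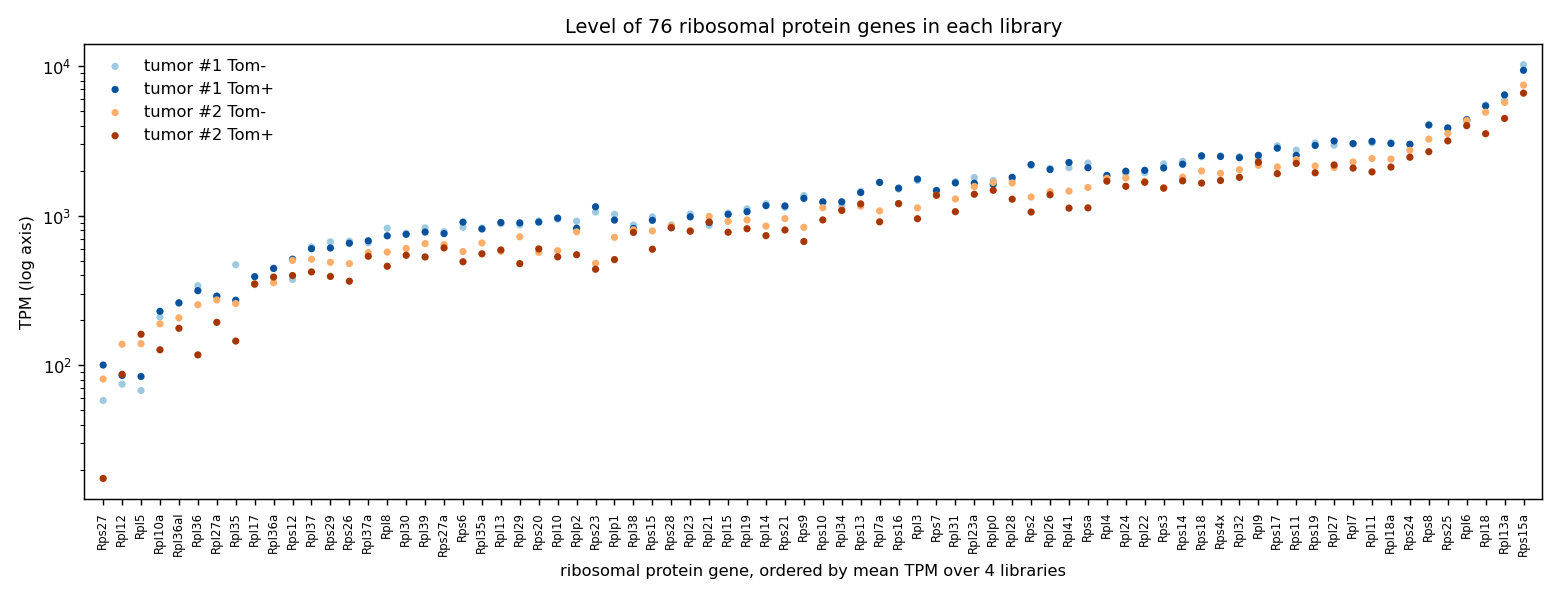
TPM (log axis) of 76 of the 77 measured ribosomal protein genes in the 4 libraries, ordered by their mean, 1 color per library. Most genes lie between 300 and 3000 TPM, Rps15a stands highest, and Rps27, Rpl12 and Rpl5 stand lowest and apart.

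Many members share sequence with copies elsewhere in the genome. All 80 members were cut into overlapping words of 60 bases, the read length, and 77 shared at least 1 word with another annotated gene. The median member shared 35.2% of its words, and 26 members shared over 50%. Genes in the table that are annotated as pseudogenes, or are protein-coding models of the same kind, and share words with a member are called copies here, and each was given to the member with which it shares most. There were 824, of which 262 had a mean of at least 1 TPM. Reads from shared words cannot be told apart by sequence, so the split of TPM between such a member and its copies is uncertain. The whole TPM of a copy was counted, however few words it shares. Gm20430 shares 7.35% of the words of Rpl12 and had a mean of 8481 TPM. Gm28900 shares 3.92% of the words of Rpl21 and had a mean of 10687 TPM. As TPM is corrected for length, a short copy gets more TPM than a long one for equal reads. All sums, ratios and fold changes with copies below carry these limits.

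The sequences of the lowest members and of an abundant copy of each show how close they are. The first 90 coding bases are given 5′ to 3′, in lower case, and capitals mark bases that differ from the member. Rps27 (chr3:90212522-90213651, minus strand) is set beside Rps27rt (chr9:114982366-114982739, minus strand), an Rps27 retrogene annotated as protein-coding, and Gm17241 (chr15:99706562-99706813, minus strand), a processed pseudogene.
Rps27: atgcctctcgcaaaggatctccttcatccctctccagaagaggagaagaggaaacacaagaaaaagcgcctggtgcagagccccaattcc
Rps27rt: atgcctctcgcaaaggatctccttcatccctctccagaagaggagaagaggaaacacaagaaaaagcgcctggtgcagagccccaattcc
Gm17241: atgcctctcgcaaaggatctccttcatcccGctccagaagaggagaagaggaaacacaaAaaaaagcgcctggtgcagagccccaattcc
Rps27rt is identical to Rps27 over this stretch, and Gm17241 has 2 differences. Rps27 itself held 17.4 to 100.2 TPM, while Rps27rt had 3315, 2995, 2739 and 2728 TPM and Gm17241 had 9042, 8410, 8333 and 8964 TPM. All copies of Rps27 together had 12439, 11425, 11130 and 11751 TPM, on average 182 times the member.

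Rpl5 (chr5:107900502-107909005, plus strand) is shown beside Gm15500 (chr7:114705217-114706235, minus strand), and Rpl35 (chr2:39001580-39005624, minus strand), a protein at the mouth of the exit tunnel, beside Gm2000 (chr1:156366040-156366484, plus strand).
Rpl5: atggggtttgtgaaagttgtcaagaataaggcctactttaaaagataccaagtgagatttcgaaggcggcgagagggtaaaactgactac
Gm15500: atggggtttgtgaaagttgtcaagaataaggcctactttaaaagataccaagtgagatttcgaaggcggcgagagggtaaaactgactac
Rpl35: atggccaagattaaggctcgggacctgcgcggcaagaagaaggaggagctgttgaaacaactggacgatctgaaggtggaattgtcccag
Gm2000: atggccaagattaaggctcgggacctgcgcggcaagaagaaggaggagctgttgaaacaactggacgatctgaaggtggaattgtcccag
Both pairs are identical over this stretch. Gm15500 had 2093, 2064, 1936 and 1956 TPM, against 67.7 to 161 TPM for Rpl5. Gm15500 shares 43.9% of the words of Rpl5, and 84.9% are shared when all other annotated genes are counted. Gm2000 had 1244, 1319, 991 and 802 TPM, against 145 to 470 TPM for Rpl35. Gm2000 shares 35.7% of the words of Rpl35, and 92.8% are shared when all other annotated genes are counted.

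Across the family, 32 of the 77 measured members had less TPM than their copies. This was so for 9 of the 10 lowest members and for 0 of the 10 highest. The level of a member and the log2 ratio of its copies to it gave r = -0.63 and rho = -0.69 over the 75 members with a copy above 0, as a description across genes in which the level enters both measures. The level and the percent of words shared, in which it does not, gave r = -0.22 and rho = -0.20 over 77 members, a weak relation. The copies took 20.6%, 19.6%, 16.1% and 14.6% of all TPM, more than the members did, and members and copies together took 33.8%, 32.7%, 26.8% and 24.0%. At the other extreme, 26 members had copies that summed to under 10% of their own level, with means from 768 to 5645 TPM. They include Rpl13a, Rpl18 and Rpl6 among the most abundant, Rps3, which had no copy in the table, and the stalk proteins Rplp0, Rplp1 and Rplp2.

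**Figure D3:**
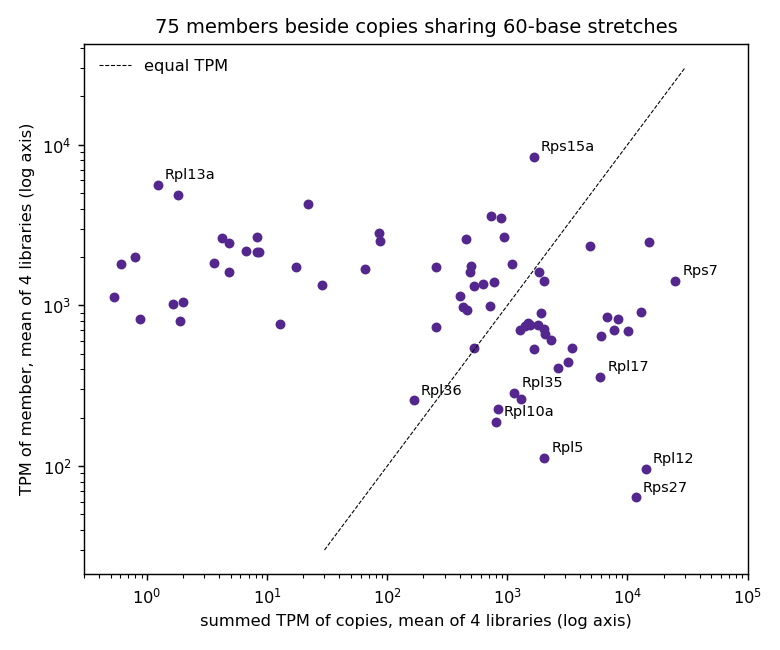
Summed mean TPM of its copies (x axis, log scale) against the mean TPM of each member (y axis, log scale) for the 75 members with a copy above 0, with a dashed line where both are equal. Rps27, Rpl12 and Rpl5 lie at the lower right, far below the line, and the members above 3000 TPM all lie above it.

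The comparison of Tom+ with Tom- cells asked how the RNA of cells with a history of Cre expression differs from that of the other tumor cells of the same mouse. No ribosomal protein gene changed by the test. Limma on log2(TPM + 1) with the tumor as block gave 0 of 77 members with an adjusted p under 0.05, and 0 of all 11339 genes tested (0%), with a smallest adjusted p of 0.936. At an unadjusted p under 0.05, 4.67% of all genes were called, 2.04% as higher and 2.64% as lower in Tom+ cells, and of the members 1 was lower and 0 were higher. The standard errors of the members' log2 fold changes ran from 0.108 to 0.827, with a median of 0.120.

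The one member with a low unadjusted p was Rpl35, at 470, 272, 258 and 145 TPM. It was lower in Tom+ cells of both mice, by a log2 fold change of -0.79 in tumor #1 and -0.83 in tumor #2 (mean -0.81, SE 0.12, limma unadjusted p = 0.00491, adjusted p = 0.936). The value of tumor #1 Tom+ cells is close to that of tumor #2 Tom- cells, so the Tom groups overlap. Most of the words of Rpl35 are shared with other annotated genes, its copies among them, and the summed copies had 1247, 1384, 1025 and 897 TPM. With the copies added, the log2 fold change of Rpl35 was -0.052 in tumor #1 and -0.30 in tumor #2, and its mean was -0.18 (SE 0.13).

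In tumor #1 the members were nearly level between the sorted fractions, and in tumor #2 nearly all were somewhat lower in Tom+ cells. The family's sum as a share of the library was 0.991-fold in Tom+ against Tom- cells of tumor #1 and 0.875-fold in tumor #2. The mean was 11.98% ± 1.78 (SD, n = 2) of TPM in Tom- and 11.3% ± 2.65 in Tom+ cells, a difference of -0.729 ± 0.871 percentage points. The exact sign-flip permutation test within the pairs gave a two-sided p = 0.5, which is the smallest that 2 pairs can give.

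Gene by gene, 43 of 77 members were lower in Tom+ cells of tumor #1, where 50.4% of all genes were. In tumor #2 it was 67 of 77 (87.0%), where 56.6% of all genes and 68.5% of the 759 other protein-coding genes with a mean of at least 100 TPM were lower. In both tumors alike, 39 members were lower (50.6%, against 29.5% of all genes) and 6 were higher (7.79%, against 21.6%), and the remaining 32 had opposite signs. The median log2 fold change of the members was -0.0067 in tumor #1 and -0.18 in tumor #2, that of all genes was -0.0029 and -0.057, and that of the other abundant protein-coding genes was -0.0036 and -0.11. Fold sizes were small. In tumor #1, 73 members were within 1.2-fold of their Tom- value, and in tumor #2 it was 49, with the other 28 all lower.

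The count in tumor #2 depended on the scale. In its Tom+ library the share of immunoglobulin genes was higher, at 9.76% of TPM against 5.35% in Tom- cells. With immunoglobulin and mitochondrially encoded genes left out of the total, 55 of 77 members were lower in tumor #2, where 46.1% of all genes were, and the median was -0.080 beside 0.031 for all genes. Relative to all genes, the members' median in tumor #2 stayed between -0.11 and -0.14 under the 7 ways of scaling or of adding copies, the deposited one included. In tumor #1 the sign of the median was not stable, at -0.0067 as deposited and 0.018 without immunoglobulin and mitochondrial genes. Whether the high Jchain level of that library has a part in this was not tested.

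**Figure D4:**
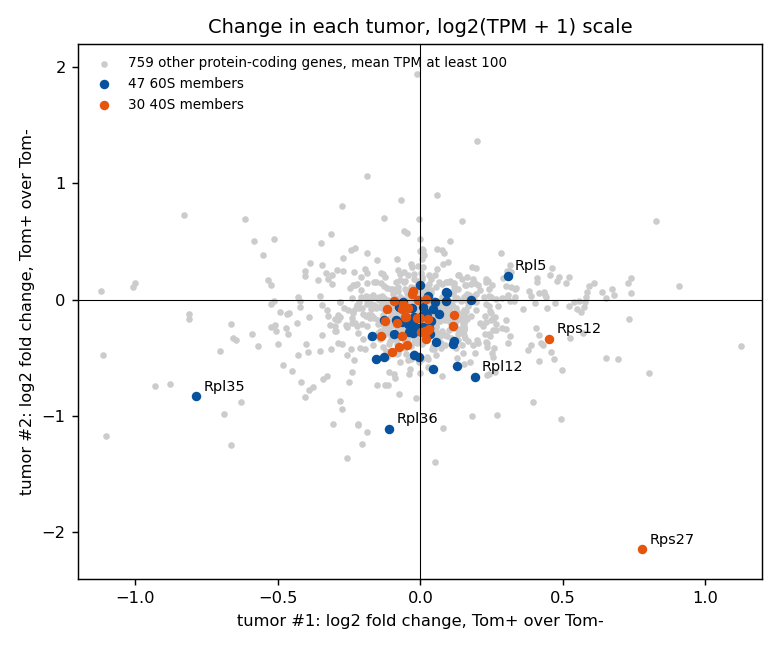
Log2 fold change of Tom+ against Tom- cells in tumor #1 (x axis) and in tumor #2 (y axis) for ribosomal protein genes, over other protein-coding genes with a mean of at least 100 TPM in grey, of which 6 genes lie outside the axes. The members form a narrow band around 0 in tumor #1 and mostly below 0 in tumor #2, and Rps27, Rps12, Rpl35 and Rpl36 lie away from it.

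The 26 members with few copies were looked at by themselves. In tumor #2 all 26 were lower in Tom+ cells, where 56.6% of all genes were, from -0.51 to -0.011 on the log2 scale with a median of -0.18. In tumor #1 it was 17 of 26, where 50.4% of all genes were, with a median of -0.023. Without immunoglobulin and mitochondrial genes the count was 21 of 26 in tumor #2 (46.1% of all genes) and 12 of 26 in tumor #1. After quantile normalization it was 22 in tumor #2 (51.5% of all genes) and 20 in tumor #1. With all copies added to their members, 71 of 77 were lower in tumor #2 (56.7% of all genes) and 55 in tumor #1.

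Rplp1 and Rplp2 were among the members with the lowest log2 fold changes of the same sign in both tumors. They form the flexible stalk of the 60S subunit that recruits elongation factors, and Rplp0 anchors them. Rplp2 had 919, 825, 780 and 548 TPM, a log2 fold change of -0.33 (SE 0.15), and Rplp1 had 1023, 935, 717 and 509 TPM, a log2 fold change of -0.31 (SE 0.15). Rplp0 had 1721, 1621, 1670 and 1479 TPM, a log2 fold change of -0.13 (SE 0.11) beside the family median of -0.11, and both Tom+ values lie below both Tom- values. Rpsa, a 40S protein also known as a laminin receptor, had 2249, 2097, 1546 and 1129 TPM (-0.28, SE 0.15). None of these passed the test (limma adjusted p = 0.936 for each). Rpl36 had the lowest log2 fold change in tumor #2 after Rps27, with 340, 315, 254 and 117 TPM, log2 fold changes of -0.11 and -1.11 in the 2 tumors and an SE of 0.30.

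Rps27 and Rps12 had the highest log2 fold changes of the members in tumor #1. Rps27 was higher in Tom+ cells there and lower in tumor #2, with log2 fold changes of 0.78 and -2.15 (mean -0.68, SE 0.83), and its Tom groups overlap. With its copies added these values became -0.12 and 0.070, the levels then being set almost wholly by Rps27rt and Gm17241. Rps12, a 40S protein with 62.5% of its words shared, had 374, 512, 503 and 398 TPM, log2 fold changes of 0.45 and -0.34, and -0.026 and -0.25 with copies added.

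The members with a higher value in Tom+ cells of both mice had small differences. Rpl5 had the largest, with log2 fold changes of 0.31 and 0.21 (SE 0.13), and with its copies added these became -0.0065 and 0.031. Rpl17 had 346, 391, 349.1 and 349.3 TPM, a mean log2 fold change of 0.089 (SE 0.12), and with its copies added -0.27. Rpl9 (mean 0.079), Rpl27 (0.075) and Rpl13 (0.029) were within their standard errors of 0.11. With copies added, Rpl27 (0.021) and Rpl5 (0.012) stayed above 0, and Rpl9 and Rpl13 were at -0.15 and -0.14.

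Counted by overlap over both mice, 2 members (Rplp0 and Rps28) had both Tom+ libraries below both Tom- libraries, where 9.86% of all genes did, and 1 (Rpl17) had them above, where 6.42% did.

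Some members are followed for their known roles. Rpl5 and Rpl11 bind 5S rRNA and, when free, the p53 regulator Mdm2, as does Rpl23. Rpl11 had 3078, 3148, 2417 and 1965 TPM and Rpl23 had 1026, 983, 796 and 787 TPM, and neither shows the direction of Rpl5 between the tumors. Rps6, the substrate of the S6 kinases, had 836, 906, 576 and 492 TPM. Rps19, whose human counterpart is mutated in Diamond-Blackfan anemia, had 3070, 2954, 2152 and 1938 TPM. Rpl22, which is deleted in some T cell leukemias, had 1941, 2013, 1697 and 1674 TPM, and Rpl41, the smallest ribosomal protein, had 2099, 2272, 1462 and 1124 TPM. These last 6 were lower in both libraries of tumor #2 than in both of tumor #1, as were 89.6% of the members and 23.7% of all genes.

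Tumor #2 had lower levels of almost the whole family than tumor #1. For 69 of 77 members (89.6%) both libraries of tumor #2 were below both of tumor #1, where 23.7% of all genes tested were. Only 3 members (3.90%), Rpl5, Rpl12 and Rpl21, were above, where 44.8% of all genes were, and the other 5 overlapped (Rpl17, Rplp0, Rps12, Rps27 and Rps28). Summed over the family, tumor #2 was 0.762-fold of tumor #1. The median log2 difference was -0.44 over the members, -0.39 for the 60S and -0.47 for the 40S subunit, beside 0.20 over all genes tested. Each tumor is 1 mouse and its 2 libraries are fractions of the same spleen, so this difference has no test and cannot be told apart from a difference between mice or between libraries.

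Rps23, a protein of the decoding site, had the lowest log2 difference among members without overlap (-1.26), with 1059, 1148, 480 and 438 TPM. Rpl36 (-0.92) and Rpl35 (-0.88) followed. With copies added, the log2 difference of Rps23 was -1.38. The 3 exceptions were not kept when copies were added. Rpl5 was 1.98-fold higher in tumor #2, Rpl12 1.41-fold and Rpl21 1.08-fold, and their copies are 17.96, 147 and 14.1 times as abundant as they are. With copies added, the log2 differences of these 3 were -0.038, -0.31 and -0.25, and all 77 members were then lower on average in tumor #2, with 74 not overlapping, where 23.4% of all genes were below under that setting. Among the 26 members with few copies, 25 were below in tumor #2 without overlap, where 23.7% of all genes were, and their median difference was -0.45.

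How far the family stands from other genes between the tumors depended on the scaling. Relative to the median of all genes, the members' median difference was -0.64 as deposited, -0.68 with trimmed-mean scaling and -0.63 without immunoglobulin and mitochondrial genes, but -0.10 after quantile normalization, which forces the same distribution of levels on each library. After quantile normalization 43 of 77 members (55.8%) had tumor #2 below tumor #1 without overlap, where 37.4% of all genes did. Without immunoglobulin and mitochondrial genes it was 51 members, where 17.8% of all genes did, and with trimmed-mean scaling it was 73, where 39.7% did.

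**Figure D5:**
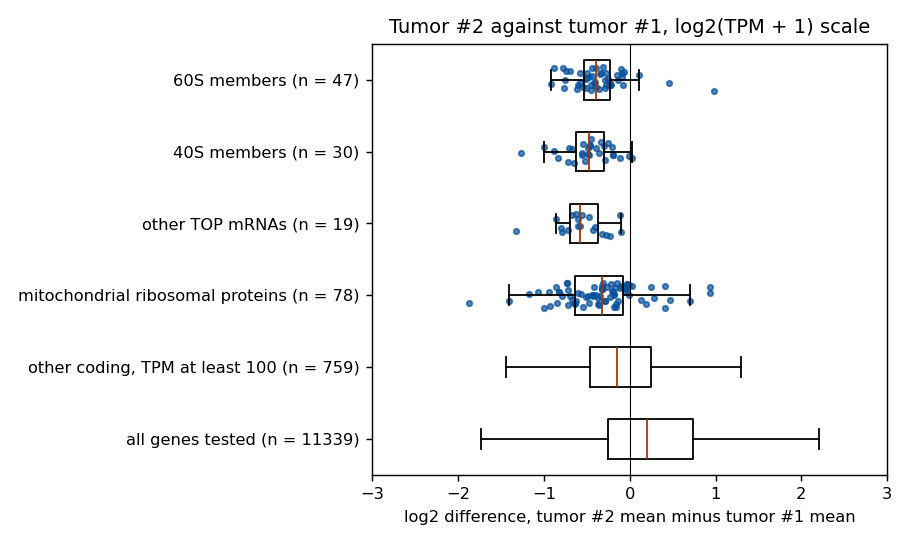
Box plots of the log2 difference of tumor #2 from tumor #1 (x axis, difference of the means of the libraries of each tumor) by gene list, with the median as a line in the box, the quartiles as its ends, whiskers to the last gene within 1.5 times the box length, and each gene as a point in the 4 smaller lists. The 60S and 40S members (medians -0.39 and -0.47) and the other TOP mRNAs (median -0.57) lie mostly below 0, while the median of all genes tested lies above it at 0.20.

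Related genes gave the comparison a wider frame. The list of other mRNAs with a TOP start holds translation factors and their partners, and also genes with other roles such as Vim, Ipo5, Hnrnpa1 and Nap1l1. For 19 of 19 genes of this list both libraries of tumor #2 were below both of tumor #1, where 23.7% of all genes were. Their median log2 difference was -0.57. After quantile normalization it was 16 of 19 (37.4% of all genes), and without immunoglobulin and mitochondrial genes it was 14 of 19 (17.8% of all genes). Eef1a1, the elongation factor that brings tRNA to the ribosome, had 12438, 11060, 8288 and 7483 TPM, Eef2, which moves the ribosome along, had 900, 800, 490 and 443 TPM, and Btf3, a part of the complex that binds nascent chains, had 744, 733, 293 and 293 TPM. Between Tom+ and Tom- cells 10 of the 19 were lower in both tumors and 1 was higher, where 29.5% and 21.6% of all genes were. The median log2 fold change of the 19 was -0.052, and 0 passed the test.

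The proteins of the mitochondrial ribosome, which makes the few proteins encoded in mitochondrial DNA, took 0.479%, 0.465%, 0.433% and 0.385% of the TPM. Of 78 genes, 46 (59.0%) had tumor #2 below tumor #1, where 23.7% of all genes did, and 8 (10.3%) had it above, where 44.8% of all genes did, with a median difference of -0.32. After quantile normalization 62 (79.5%) had it below, beside 55.8% of the cytosolic family and 37.4% of all genes. Without immunoglobulin and mitochondrial genes it was 35 (44.9%), beside 66.2% of the cytosolic family and 17.8% of all genes, so the order of these lists depended on the scaling. In Tom+ cells 53 of 78 were lower in tumor #2 and 30 of 78 in tumor #1, where 56.6% and 50.4% of all genes were. The medians of the 78 were -0.14 and 0.063. Among 759 other abundant protein-coding genes, 45.6% had tumor #2 below tumor #1, and their median difference was -0.14.

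Of 7 other ribosome components, 5 were below in tumor #2, where 23.7% of all genes were. All 7 were lower in Tom+ cells of that tumor, where 56.6% of all genes were. Rpl22l1, the paralog of Rpl22, differed more between the mice than Rpl22 did in these libraries, with 567, 608, 190 and 186 TPM, or 0.320-fold against 0.853-fold. Rps27l, the paralog of Rps27, had 752, 768, 549 and 488 TPM. Rack1, a scaffold on the 40S subunit, had 3334, 3500, 2923 and 2870 TPM. Rps27a, the member that encodes ubiquitin fused to a 40S protein, had 782, 759, 640 and 609 TPM, lower in tumor #2 as well.

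Of 12 regulators of TOP mRNAs, 2 (16.7%) were below in tumor #2 and 3 (25%) above, where 23.7% and 44.8% of all genes were, with a median log2 difference of 0.090 beside 0.20 over all genes. Mtor, the kinase, had 7.80, 11.4, 12.01 and 18.7 TPM, higher in Tom+ cells of both mice without passing the adjusted test (log2 fold changes 0.49 and 0.60, limma unadjusted p = 0.0497, adjusted p = 0.936). Larp1 had 48.7, 55.1, 49.3 and 49.9 TPM. Eif4ebp1, a translation repressor that mTOR inactivates, had 25.2, 24.7, 10.8 and 11.3 TPM. A list of 11 genes holds chaperones of ribosomal proteins and also genes with other roles in ribosome assembly, such as Nob1. Of these 11, 3 were below in tumor #2 and 3 above (27.3% each, beside the same 23.7% and 44.8% of all genes), with a median of -0.012. Pdcd2l, a relative of the chaperone of the 40S protein Rps2, had 14.5, 9.70, 24.1 and 16.3 TPM (log2 fold changes of -0.54 in both tumors, limma unadjusted p = 0.0439, adjusted p = 0.936).

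What the members share in sequence was read from their promoters in RefSeq (GRCm38.p6), for the 60 of 80 members in that table, in a window of 250 bases before and 50 bases after the start. Some genes have several annotated starts, and a gene was counted where any of its windows matched. A TOP start, meaning C at the annotated start and at least 4 more C or T, was found in 13 of 60 (21.7%), against 3.01% of the 27025 genes in the table. A run of at least 8 C or T from 10 bases before to 50 bases after the start was found in 44 (73.3%), against 24.0%. This wider count can take in starts annotated a few bases away from a TOP motif. It also takes in any other such run in that stretch. CCGGAA or its reverse complement TTCCGG, the core that ETS factors bind, was found in 32 members (53.3%), against 16.7% of all genes. TATAA from 40 to 20 bases before the start was found in 4 (6.67%), against 4.06%, and CACGTG, the E-box that MYC binds, in 6 (10%), against 8.09%, on both strands since it is its own complement. A match describes letters in these windows, not a bound site.

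A few starts are shown for members described above, from 10 bases before to 20 bases from the annotated start, 5′ to 3′ on the gene's strand. Capitals mark the run of C and T that begins at the start. The positions are chr7:118116128-118116157 (minus) for Rps15a, the highest member, chr4:86857348-86857377 (minus) for Rps6, chr7:141447641-141447670 (plus) for Rplp2, chr2:39005112-39005141 (minus) for Rpl35, chr3:90213629-90213658 (minus) for Rps27 and chr4:136053374-136053403 (minus) for Rpl11, whose annotated start has no such run.
Rps15a: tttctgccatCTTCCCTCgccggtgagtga
Rps6: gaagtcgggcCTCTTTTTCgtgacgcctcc
Rplp2: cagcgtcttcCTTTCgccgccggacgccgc
Rpl35: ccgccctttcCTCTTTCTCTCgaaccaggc
Rps27: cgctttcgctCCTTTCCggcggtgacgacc
Rpl11: ccataaggccacggggccggaagtctccct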

How the data were processed

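RNA-seq libraries of Tom- and Tom+ B220+ IgM+ cells of 2 tumors were used. The authors trimmed the reads with Cutadapt, dropped short ones and quantified the rest on the mouse transcriptome of GRCm38 with Salmon (version 1.9 in the submitters' processing notes, which also list CASAVA 1.8). They deposited TPM per gene, without read counts, so the depth behind a value cannot be given and nothing is said of counting error. The annotation release behind the table is uncertain. GENCODE M21 held 34652 of the 34866 identifiers.

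Values were tested as log2(TPM + 1) for the 11339 genes that reached 1 TPM in 2 or more libraries, with limma 3.58.1 in R 4.3.3, Tom status and tumor as terms (the labels pair the libraries by tumor, and each tumor is a mouse), a trend in the variance prior (degrees of freedom 2.21 prior, 1 residual), and p-values adjusted by Benjamini-Hochberg over all genes at 0.05. Fold changes on this scale understate those of low genes. The study's edgeR test of paired samples needs counts and was not run. In its own analysis the study reported genes that differ between these Tom+ and Tom- cells. The lack of calls here therefore does not show that no gene differs. Sums were compared by exact sign-flip permutation. Tumors were described without a test. p-values measure the spread between these libraries only. The method was checked on simulated data with added changes larger than any seen in the members. That check does not show whether changes as small as theirs would be found. Python 3.11.15, pandas 2.3.3, numpy 2.4.6 and matplotlib 3.10.9 were used.

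Members and gene lists were chosen with earlier results of these data known. Named were the 5 highest and 5 lowest measured members, the members not measured, the 5 with the largest change of the same sign in both tumors in each direction, those with an unadjusted p under 0.05, the 3 with the largest tumor difference without overlap in each direction, paralog pairs, members with a set role and genes of the comparison lists as needed. Rps12, Rps28, Rps3 and single copies were named after their values were seen. Alternatives were leaving out the tumor term, pseudocounts of 0.5 and 0.1, all genes kept, genes with 5 TPM or more on average, trimmed-mean scaling (30% of log ratios and 5% of levels), quantile normalization, rescaling without immunoglobulin and mitochondrial genes or over protein-coding genes, pseudogenes named after a member added to it, no variance trend, a robust prior and each tumor or library left out. Adding all copies was chosen after seeing the data. Copies were pseudogenes sharing a 60-base word with a member, or protein-coding genes with a pseudogene-type symbol sharing at least 20% of its words. Some items, among them 1 member that enters the counts, are not reported here by name.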

Additional observations from a re-analysis of the deposited data

Results flagged for a closer look

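Named members whose log2 fold change of Tom+ against Tom- cells had opposite signs in the 2 tumors are given here with the value of tumor #1 first, and the difference between the tumors was not tested for any of them. The widest gap was that of Rps27 (0.78 and -2.15), the lowest measured member, followed by Rpl12 (0.19 and -0.66), Rps12 (0.45 and -0.34, named after its values were seen) and Rpl10a (0.13 and -0.57). Other members higher in tumor #1 and lower in tumor #2 were Rpl41 (0.11 and -0.38), Rpl13a (0.12 and -0.36), Rps6 (0.12 and -0.23), Rpl11 (0.033 and -0.30), Rpl3 (0.029 and -0.24), Rpl36al (0.011 and -0.23), Rps23 (0.12 and -0.13), Rps25 (0.028 and -0.16), Rpl21 (0.064 and -0.12), Rpl10 (0.022 and -0.14), Rpl6 (0.020 and -0.11) and Rpl22 (0.052 and -0.020). Rpl36a had the opposite order (-0.0020 and 0.12). The 40S share of the member TPM was 0.772 percentage points lower in Tom+ cells of tumor #1 (-0.772) and 0.596 points higher in those of tumor #2. With copies added, Rps27 had -0.12 in tumor #1 and 0.070 in tumor #2, and Rpl12 had -0.14 and -0.33.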

How the results depend on the processing

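No member and no other gene reached a limma adjusted p under 0.05 in any fit (0 in each), whereas the study's own analysis did report differing genes. Members with an unadjusted p under 0.05 numbered 1 (Rpl35) in the fit with the tumor as block, which follows from the shared mouse, and 0 in the fit with no replicate block, which changed no other call of a member. With all copies added the number was 0, and over protein-coding genes only it was 2. Over all genes, 140 had an unadjusted p under 0.05 without the block and 530 of 11339 with it. The number over all genes was 515 of 11067 with all copies added and 552 of 10520 over protein-coding genes only. Fits with 1 library left out had no replicate block, and only their effect sizes are given. The median log2 fold change of the members (-0.11) ran from -0.36 to 0.14 with 1 library or tumor left out. It was 0.034 without tumor #1 Tom- cells, -0.28 without tumor #2 Tom- cells, -0.36 without tumor #1 Tom+ cells, 0.14 without tumor #2 Tom+ cells, -0.18 without tumor #1 and -0.0067 without tumor #2. The median tumor difference (-0.44) was -0.18 after quantile normalization and -0.78 after trimmed-mean scaling. TPM without counts cannot show which small differences exceed counting error.

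Changes of sign among named members are given by setting. With all copies added, the log2 fold change of Rpl13 was -0.14, of Rpl17 was -0.27, of Rpl36a was -0.043 and of Rpl9 was -0.15. With named pseudogenes added, the log2 fold change of Rpl17 was -0.067 and of Rpl36a was -0.076. Over protein-coding genes only, the log2 fold change of Rps23 was 0.0015. After quantile normalization, the log2 fold change of Rpl10 was 0.026, of Rpl21 was 0.035, of Rpl23 was 0.060, of Rps23 was 0.024, of Rps27a was 0.015 and of Rps6 was 0.028. Without immunoglobulin and mitochondrial genes, the log2 fold change of Rpl10 was 0.0073, of Rpl21 was 0.034, of Rpl23 was 0.025, of Rpl6 was 0.017, of Rps23 was 0.057, of Rps27a was 0.0073 and of Rps6 was 0.0085. With 1 library left out and the tumor term dropped, the sign changed at least once for Rpl10 (0.29 to 0.37), Rpl10a (0.20), Rpl11 (0.041 to 0.21), Rpl12 (0.20), Rpl13 (-0.28), Rpl13a (0.14), Rpl18 (0.058), Rpl21 (0.069), Rpl22 (-0.12 to -0.080), Rpl23 (0.12 to 0.14), Rpl27 (-0.19 to -0.17), Rpl3 (0.20 to 0.33), Rpl36 (0.10), Rpl36a (-0.098 to -0.035), Rpl36al (0.050 to 0.17), Rpl39 (0.082), Rpl41 (0.13 to 0.37), Rpl5 (-0.26 to -0.21), Rpl6 (0.020), Rplp1 (0.13), Rps15a (0.075 to 0.10), Rps19 (0.15 to 0.20), Rps23 (0.56 to 0.69), Rps25 (0.076), Rps27 (0.54), Rps27a (0.088 to 0.10), Rps4x (0.11 to 0.18), Rps6 (0.21 to 0.38) and Rpsa (0.17), with the lowest and highest value after the change in brackets. With 1 tumor left out, so that the value is that of the other tumor, the sign differed between the tumors for Rpl10 (-0.14 to 0.022), Rpl10a (-0.57 to 0.13), Rpl11 (-0.30 to 0.033), Rpl12 (-0.66 to 0.19), Rpl13a (-0.36 to 0.12), Rpl21 (-0.12 to 0.064), Rpl22 (-0.020 to 0.052), Rpl3 (-0.24 to 0.029), Rpl36a (-0.0020 to 0.12), Rpl36al (-0.23 to 0.011), Rpl41 (-0.38 to 0.11), Rpl6 (-0.11 to 0.020), Rps23 (-0.13 to 0.12), Rps25 (-0.16 to 0.028), Rps27 (-2.15 to 0.78) and Rps6 (-0.23 to 0.12).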
